A study of Homo sapiens with 8 samples.

Results

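Genes of the cellular stress response, 10 in number, were followed here in MCF-10A cells, an established non-tumorigenic line of human breast epithelium: TRIB3, CHAC1, SESN2, DDIT4, PPP1R15A, NUPR1, KLHDC7B, VLDLR, TRIB1 and TRIB2. They are 10 of the 60617 genes in the count table. Of these, 8 were chosen for their function as effectors or feedback genes of the integrated stress response or as relatives of such genes, and 2, NUPR1 and KLHDC7B, were chosen because they rose with the drug in these same libraries. The changes of NUPR1 and KLHDC7B with the drug, and the line differences that rest on the same libraries, are therefore given as a description with no test. The other 8 were also named with earlier results of these data in view, so counts over them describe these genes and are no independent evidence. The study compared cells labelled Empty with cells labelled NeuT, either untreated or exposed to 1 µM JG-98 during 12 h, with 2 libraries in every one of the 4 groups. JG-98 is an inhibitor of Hsp70 chaperones, and the series was designed to ask how sensitive transformed cells are to it. The name NeuT is not explained in the labels, and neither is whether either line is a single clone, or whether replicates were separate cultures. Hence the p-values measure only the spread between these libraries, which may be technical. All groups shared one growth medium with horse serum, epidermal growth factor, hydrocortisone, insulin and cholera toxin, and the untreated cells are not described as having received a vehicle.

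The integrated stress response starts when one of several kinases phosphorylates the translation factor eIF2α, which lowers protein synthesis overall while favouring translation of the transcription factor ATF4. ATF4 and its partner and target CHOP (the product of DDIT3) then switch on genes for amino acid supply and also genes that restrain or end the response. PPP1R15A (GADD34) brings protein phosphatase 1 to eIF2α and removes the phosphate, TRIB3 is a pseudokinase that binds ATF4 and CHOP and holds them back, SESN2 and DDIT4 (REDD1) restrain the growth kinase complex mTORC1, and CHAC1 breaks down glutathione. The title of the series places it in the HRI kinase branch of this response.

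Promoter sequence was set beside the members because several of them moved together under the drug. RefSeq windows (GRCh38.p14) of the 250 bases before the first transcribed base were held for 8 of the 10 genes, and 5 are printed here, each on the plus strand and written 5′ to 3′. The first 4 belong to genes whose transcript levels were higher in both treated libraries of each line, and DDIT4 is shown as a member whose NeuT libraries overlapped. TRIB3 and VLDLR were higher in the same way, and their windows, like that of TRIB2, held no match to the elements searched and are not printed. Capitals mark a match on either strand to TGATGNAA, a composite element of ATF4 and C/EBP factors, or to TGACGTCA, the cAMP response element. The windows are chr15:40953221-40953470 for CHAC1, chr22:50545649-50545898 for KLHDC7B, chr19:48872171-48872420 for PPP1R15A, chr1:28259268-28259517 for SESN2 and chr10:72273674-72273923 for DDIT4.
CHAC1: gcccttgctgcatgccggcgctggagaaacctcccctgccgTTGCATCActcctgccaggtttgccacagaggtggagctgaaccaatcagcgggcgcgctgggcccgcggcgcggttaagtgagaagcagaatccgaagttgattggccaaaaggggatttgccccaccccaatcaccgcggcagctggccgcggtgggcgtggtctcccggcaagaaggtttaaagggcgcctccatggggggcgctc
KLHDC7B: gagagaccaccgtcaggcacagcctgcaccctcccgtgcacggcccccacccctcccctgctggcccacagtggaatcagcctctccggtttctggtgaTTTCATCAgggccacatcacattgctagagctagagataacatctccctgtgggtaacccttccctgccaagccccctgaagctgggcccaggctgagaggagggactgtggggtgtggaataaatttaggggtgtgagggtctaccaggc
PPP1R15A: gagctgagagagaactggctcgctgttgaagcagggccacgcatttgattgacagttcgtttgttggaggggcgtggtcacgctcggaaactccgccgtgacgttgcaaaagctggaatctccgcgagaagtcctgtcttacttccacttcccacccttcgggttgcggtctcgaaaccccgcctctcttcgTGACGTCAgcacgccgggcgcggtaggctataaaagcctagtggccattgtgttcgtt
SESN2: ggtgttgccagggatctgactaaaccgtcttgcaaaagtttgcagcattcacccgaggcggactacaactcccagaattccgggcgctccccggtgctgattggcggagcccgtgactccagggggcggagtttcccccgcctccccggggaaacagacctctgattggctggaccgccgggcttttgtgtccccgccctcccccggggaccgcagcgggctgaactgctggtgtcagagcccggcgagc
DDIT4: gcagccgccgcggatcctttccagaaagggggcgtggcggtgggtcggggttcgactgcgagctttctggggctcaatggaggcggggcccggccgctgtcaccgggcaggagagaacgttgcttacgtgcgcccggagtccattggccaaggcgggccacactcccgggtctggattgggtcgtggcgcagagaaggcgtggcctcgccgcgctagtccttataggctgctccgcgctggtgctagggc

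The composite element lay on the minus strand of the CHAC1 window as TTGCATCA, beginning 209 bases before the start, and of the KLHDC7B window as TTTCATCA, beginning 151 bases before it. The PPP1R15A window held the cAMP response element 58 bases before its start. Of the 27305 genes with RefSeq windows of this length, 3.89% held TGATGNAA and 2.03% held TGACGTCA in at least 1 window (3.14% and 1.65% of the 35116 windows), and no stretch can match both in full. Counted by gene in the same way, of the 8 members with a window 2 held the first and 1 held the second, and 4 of the 25 other ATF4 target genes with a window held the first. TGATGNAA also lay in 3 of 7 ATF4 and CHOP factors and 1 of 8 paralogs of the members. It lay in 1 of 14 eIF2α cycle genes and 1 of 28 mTORC1 genes. TGACGTCA lay in 0 of those 25 targets, 2 of 9 glutathione turnover genes and 1 of 7 glucocorticoid targets. Elsewhere in the lists described below, counts for each element were 0. The RefSeq start of KLHDC7B at 50545899 lies before the first base of the gene in the deposited table, 50546203, and that of CHAC1 at 40953471 lies inside the deposited gene, which begins at 40952962. TRIB3 had RefSeq starts at 381295, 381306 and 381343, far inside its deposited gene, which begins at 362835. A match is a description of letters and shows neither binding nor its effect, and a window without one says only that these letters are not in it.

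Sequencing depth was even except in 1 library. Total counts were 37341458 in treated Empty replicate 1 and 55050996 to 56861971 in the others, and all 10 members passed the filter on low counts. Of the members, 9 had at least 10 counts in every library, the exception being KLHDC7B with 7 in untreated Empty replicate 1. The labelled cell type was checked against markers: KRT5, KRT14 and KRT17 of basal breast epithelium each had at least 109424 counts in every library, while TP63, also a basal marker, was low at 139 to 510 counts. KRT8, a keratin of simple and luminal epithelium, had 75380 counts or more, and the endothelial marker PECAM1 had 398 to 879. Among luminal hormone-responsive markers, ESR1 had 528 to 875 counts, FOXA1 779 to 1253, GATA3 1160 to 1797 and PGR 0 to 5. The 4 immune markers summed to at most 0.0928 CPM, the usual count scaled to sequencing depth. Treated NeuT replicates lay further apart than those of any other group, with a chi-square statistic per gene of 22.0 against 4.52 to 8.20. A run with 1 library left out leaves that group without a replicate, so its spread no longer enters the p-values. Genes are described as called, and as having risen or fallen, where edgeR's quasi-likelihood test gave a Benjamini-Hochberg adjusted p under 0.05 over the 17693 genes tested, levels are CPM scaled by TMM, and differences are on the log2 scale.

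With JG-98 the transcripts of TRIB3, CHAC1, SESN2 and VLDLR rose in NeuT cells, by 2.47-fold, 17.1-fold, 2.68-fold and 1.44-fold, and TRIB3 by 1.95-fold in Empty cells. Of the 8 members chosen by function, 4 were called higher in NeuT, where 2.01% of all genes tested were called higher (3.01% in either direction), and 1 was called higher in Empty, where 0.260% were (0.0791% lower, 0.339% in either direction). None of the 8 was called lower. The excess of higher over lower calls among all genes in Empty, 46 against 14, turned to 5 against 11 without untreated Empty replicate 1, 6 against 11 without untreated Empty replicate 2 and 3 against 6 without treated Empty replicate 1. In RNA from whole cultures, a change in every cell and a change in the share of cells that express a gene cannot be told apart. Their median log2 change was 0.79 in NeuT, against 0.00 over all genes tested, and 0.55 in Empty, against -0.00 over all. DESeq2 called 5 of the 8 in NeuT and 3 in Empty, beside 6.0% and 1.20% of the 12204 genes given an adjusted p. With limma-voom the same numbers of members were called, beside 2.85% and 0.249% of the 17693 genes tested. Which of them passed depended on single libraries: in NeuT, 1 was called without either untreated NeuT library and 6 without treated NeuT replicate 1, and in Empty none was called without any one of the 4 Empty libraries and 5 without either treated NeuT library. The share of all genes called moved the same way, to 0.706% and 0.766% in NeuT without untreated NeuT replicate 1 or 2 and 11.4% without treated NeuT replicate 1, and in Empty to 0.0483% to 0.198% without 1 Empty library and 2.23% and 2.16% without treated NeuT replicate 1 or 2.

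**Figure D1:**
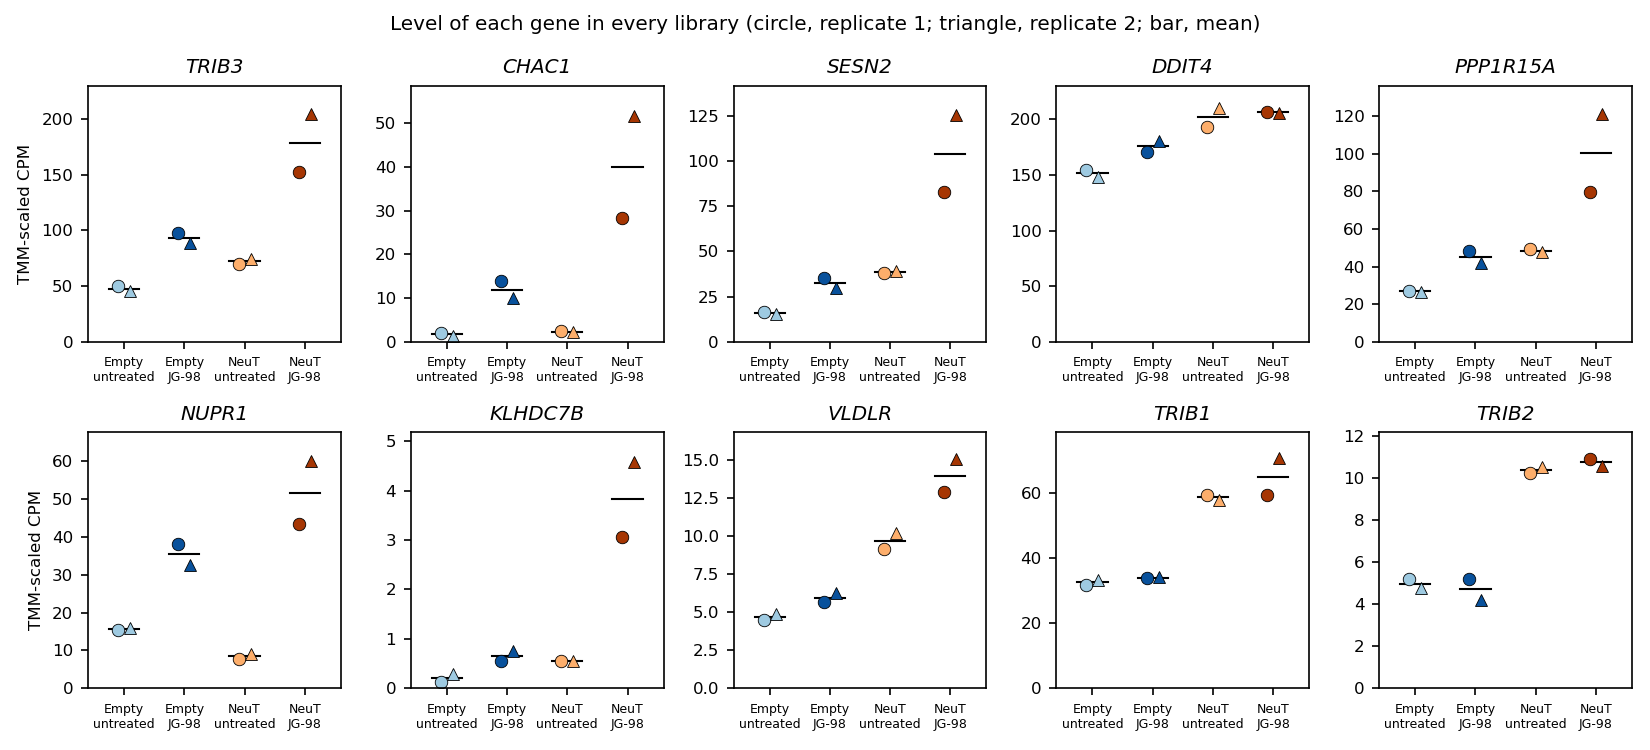
Level of each of the 10 genes in every library, as TMM-scaled CPM on a linear axis from 0, with circles for replicate 1, triangles for replicate 2 and bars for the group mean. The treated NeuT libraries stand highest for TRIB3, CHAC1, SESN2, PPP1R15A, NUPR1, KLHDC7B and VLDLR, whereas TRIB1 and TRIB2 separate by line and DDIT4 separates by line too but differs little with JG-98.

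TRIB3 (ENSG00000101255, chromosome 20, 362835 to 397559, plus strand, GRCh38) had the second highest level per length of the 10 genes in every group. It was at 50.1 and 45.5 CPM in Empty cells left untreated and 98.03 and 88.64 with JG-98, and in NeuT cells at 69.9 and 74.7 without and 152.2 and 204.5 with it. Both treated libraries lay above both untreated ones in each line, and no library of treated NeuT overlapped any other group. The log2 rise was 0.96 (SE 0.133, edgeR adjusted p 0.0311) in Empty and 1.30 (SE 0.13, edgeR adjusted p 0.00159) in NeuT. The NeuT call held in every alternative run, with adjusted p-values up to 0.0123. In Empty the adjusted p was 0.0979 to 0.372 when any one of the 4 Empty libraries was left out, within a range of 1.93e-32 to 0.372 over all alternatives.

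PPP1R15A, the stress-induced subunit that directs phosphatase to eIF2α (ENSG00000087074, chromosome 19, 48872421 to 48876058, plus strand), was at 27.1 and 26.4 CPM in Empty cells left untreated and 48.3 and 42.1 with JG-98, and in NeuT cells at 49.5 and 47.5 without and 79.9 and 121.2 with it. The treated libraries again lay above the untreated ones in each line without overlap. The log2 difference was 0.75 (SE 0.207, edgeR adjusted p 0.318) in Empty and 1.05 (SE 0.198, edgeR adjusted p 0.0645) in NeuT, and neither was called. The NeuT difference passed with DESeq2 (adjusted p 0.000197) and limma-voom (0.00123). It did not pass with only the 4 libraries compared (edgeR adjusted p 0.183). Its log2 value was 1.32 without treated NeuT replicate 1 and 0.71 without treated NeuT replicate 2. Each of these runs left 1 treated NeuT library, so that group added no spread between replicates. In Empty the log2 difference was 0.76 without either treated NeuT library.

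CHAC1, a γ-glutamylcyclotransferase that cleaves glutathione (ENSG00000128965, chromosome 15, 40952962 to 40956512, plus strand), changed most of the 10 genes by fitted fold in NeuT. It was at 2.04 and 1.40 CPM in Empty cells left untreated and 13.9 and 9.96 with JG-98, and in NeuT cells at 2.36 and 2.32 without and 28.2 and 51.6 with it. The untreated libraries of both lines were all below 2.5 CPM, and the treated NeuT libraries differed from each other by a ratio of 1.83. The log2 rise in NeuT was 4.09 (SE 0.422, edgeR adjusted p 0.0175). The difference in Empty was 2.77 (SE 0.453), 6.84-fold, and was not called (edgeR adjusted p 0.175), although DESeq2 (8.73e-09) and limma-voom (0.0346) called it, in a range of 8.73e-09 to 0.753 over the alternatives. The Empty difference was 2.78 without treated NeuT replicate 1 or replicate 2, runs that left treated NeuT with no replicate. In NeuT the adjusted p rose to 0.149 and 0.185 without untreated NeuT replicate 1 or 2 and to 0.0509 without untreated Empty replicate 1, in a range of 4.27e-21 to 0.185.

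SESN2, a leucine-sensing protein that restrains mTORC1 through GATOR2 (ENSG00000130766, chromosome 1, 28259518 to 28282491, plus strand), was at 16.5 and 15.6 CPM in Empty cells left untreated and 35.1 and 29.8 with JG-98, and in NeuT cells at 38.2 and 39.4 without and 82.7 and 125.4 with it. Treated Empty cells did not reach the level of untreated NeuT cells. The log2 rise in NeuT was 1.42 (SE 0.203, edgeR adjusted p 0.0274), and the difference in Empty was 1.01 (SE 0.219, edgeR adjusted p 0.232), which was not called. Leaving out any one Empty library moved the NeuT adjusted p to between 0.0511 and 0.0617, and leaving out untreated NeuT replicate 1 or 2 moved it to 0.145 or 0.164, in a range of 2.03e-14 to 0.164 over the alternatives. In Empty, DESeq2 gave an adjusted p of 0.00184 and limma-voom one of 0.0473. Without treated NeuT replicate 1 or 2, which left that group with no replicate, the Empty difference was 1.01.

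DDIT4, which restrains mTORC1 through the TSC complex (ENSG00000168209, chromosome 10, 72273924 to 72276036, plus strand), had the highest level per length in every group, from 73.8 ± 2.13 CPM per kilobase (SD, n = 2) in untreated Empty to 100.4 ± 0.189 (SD, n = 2) in treated NeuT. It was at 154.8 and 148.6 CPM in Empty cells left untreated and 170.9 and 180.9 with JG-98, and in NeuT cells at 193.5 and 209.9 without and 206.5 and 206.0 with it. The treated libraries lay above the untreated ones in Empty and within their range in NeuT. The log2 difference was 0.21 (SE 0.0576, edgeR adjusted p 0.165) in Empty and 0.03 (SE 0.0572, edgeR adjusted p 0.853) in NeuT, and neither was called. Without treated NeuT replicate 1 or 2, which left that group with no replicate, the Empty difference was 0.22. An antisense gene without a symbol (ENSG00000269926) overlaps 41.2% of the exonic bases of DDIT4 and had 0 counts in all 8 libraries, and how reads in the shared bases were counted is not given in the sources used here.

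VLDLR, a receptor for lipoproteins and reelin (ENSG00000147852, chromosome 9, 2621787 to 2660056, plus strand), was at 4.47 and 4.86 CPM in Empty cells left untreated and 5.64 and 6.24 with JG-98, and in NeuT cells at 9.16 and 10.2 without and 12.9 and 15.0 with it. Levels stepped up from group to group without overlap. The log2 rise in NeuT was 0.53 (SE 0.113, edgeR adjusted p 0.0159), and the difference in Empty was 0.35 (SE 0.126, edgeR adjusted p 0.318), which was not called. The NeuT call was lost without untreated NeuT replicate 1 (0.225), untreated NeuT replicate 2 (0.101) or treated NeuT replicate 2 (0.134), in a range of 0.000604 to 0.225. The antisense gene VLDLR-AS1 overlaps VLDLR and also rose in NeuT, with 12 and 20 counts untreated and 46 and 69 treated (log2 1.84, SE 0.417, edgeR adjusted p 0.0218). Its counts came to 5.53% of those of VLDLR, antisense genes overlap 14.6% of the exonic bases of VLDLR, and without a stated use of strand the reads of the pair cannot be told apart.

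TRIB1 and TRIB2 are pseudokinases that bring the ubiquitin ligase COP1 to C/EBPα, and no difference with the drug passed the test for either. TRIB1 (ENSG00000173334, chromosome 8, 125430358 to 125438403, plus strand) was at 31.9 and 33.4 CPM in Empty cells left untreated and 34.0 and 34.1 with JG-98, and in NeuT cells at 59.5 and 58.1 without and 59.5 and 71.0 with it. Its log2 difference with JG-98 was 0.06 (SE 0.0795, edgeR adjusted p 0.866) in Empty and 0.15 (SE 0.076, edgeR adjusted p 0.357) in NeuT. Treated NeuT replicate 2 alone stood out. On the log2 scale it lay 0.27 above the mean of the untreated NeuT libraries, against 0.02 for replicate 1. TRIB2 (ENSG00000071575, chromosome 2, 12716889 to 12742734, plus strand) was at 5.20 and 4.79 CPM in Empty cells left untreated and 5.22 and 4.23 with JG-98, and in NeuT cells at 10.2 and 10.6 without and 10.9 and 10.6 with it. The log2 differences of TRIB2 were -0.09 (SE 0.128, edgeR adjusted p 0.878) and 0.05 (SE 0.113, edgeR adjusted p 0.887).

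NUPR1, a small chromatin-associated protein induced by many stresses (ENSG00000176046, chromosome 16, 28532708 to 28539174, minus strand), was at 15.5 and 15.9 CPM in Empty cells left untreated and 38.2 and 32.6 with JG-98, and in NeuT cells at 7.77 and 9.07 without and 43.3 and 60.0 with it. Untreated NeuT libraries were the lowest and treated NeuT libraries the highest of all. The log2 difference with JG-98, which chose this gene, was 1.17 (SE 0.146) in Empty and 2.62 (SE 0.155) in NeuT. KLHDC7B, a kelch-domain protein (ENSG00000130487, chromosome 22, 50546203 to 50551023, plus strand), was sparse, with 7 and 16 counts untreated and 21 and 44 with JG-98 in Empty cells, and 30 and 30 against 166 and 247 in NeuT cells. Per library these counts were 0.123 and 0.281 CPM, then 0.551 and 0.750, 0.548 and 0.557, and 3.07 and 4.57. Its log2 difference with JG-98, which also chose it, was 2.78 (SE 0.309) in NeuT and 1.70 (SE 0.407) in Empty, where it was 2.40 without untreated replicate 2 and 1.23 without untreated replicate 1.

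**Figure D2:**
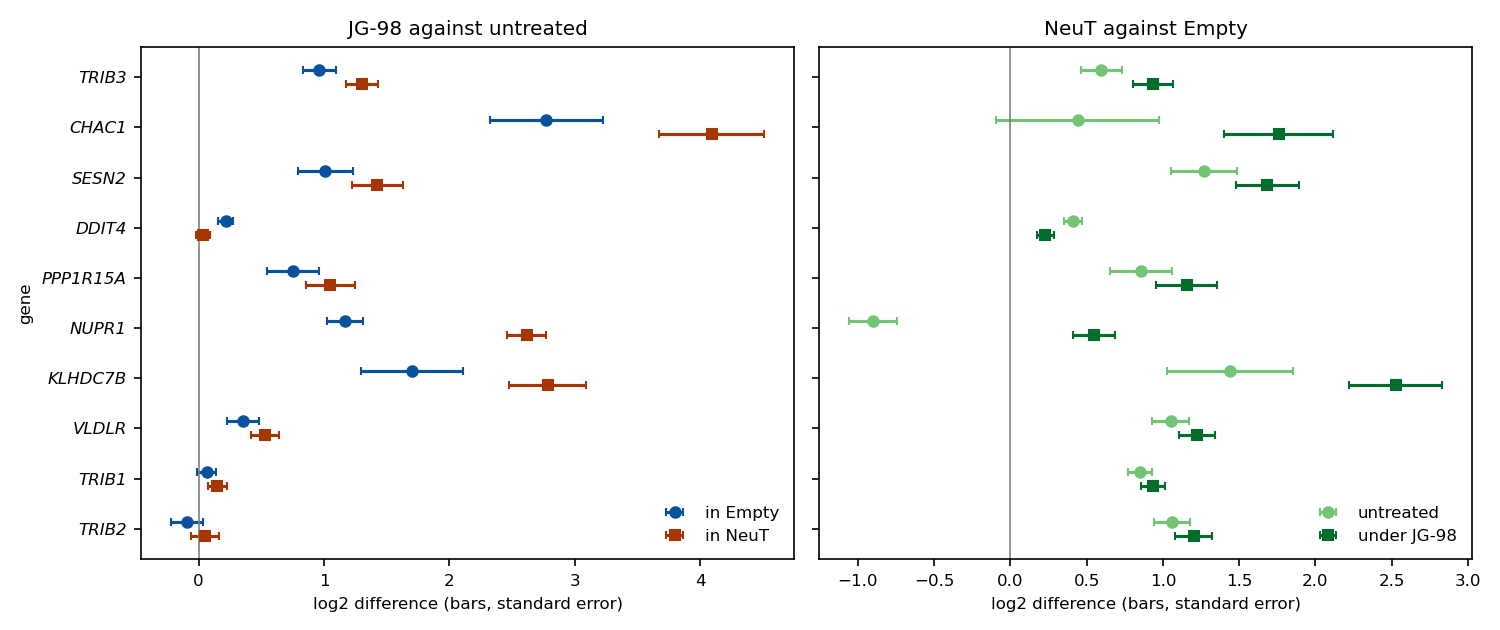
Fitted log2 difference of each gene, with bars for 1 standard error, for JG-98 against untreated in each line (left) and NeuT against Empty without and with JG-98 (right). CHAC1 has the largest change with JG-98 in NeuT at 4.09, and NUPR1 is the one gene below 0 between untreated lines, at -0.90.

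The authors' deposited tables of treated against untreated cells gave the same directions for the members that were called here. In Empty the authors' deposited table gave adjusted p-values of 0.00147 for TRIB3, 0.024 for CHAC1, 0.0299 for SESN2 and 0.0804 for PPP1R15A. In NeuT the authors' deposited table gave 1.29e-05 for TRIB3, 5.31e-05 for CHAC1, 8.04e-05 for SESN2, 0.000864 for PPP1R15A and 0.0156 for VLDLR. PPP1R15A in NeuT and CHAC1 and SESN2 in Empty thus passed 0.05 there and not in the edgeR fit with robust estimation, which gave CHAC1, PPP1R15A and SESN2 few prior degrees of freedom (0.746, 1.51 and 1.55, against 12.5 for DDIT4, KLHDC7B, VLDLR, TRIB1 and TRIB2).

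Whether the drug response differed between the lines was tested directly. The log2 change was larger in NeuT than in Empty for 7 of the 8 members chosen by function, by 0.34 for TRIB3 (SE 0.184), 1.32 for CHAC1 (SE 0.644), 0.41 for SESN2 (SE 0.297) and 0.30 for PPP1R15A (SE 0.285), and it was smaller for DDIT4 (-0.18, SE 0.0812). None of the 8 differences passed edgeR's test (adjusted p 0.607 to 0.875), 1 of the 8, DDIT4, had an unadjusted p under 0.05, and DESeq2 and limma-voom also called 0 of them. Over all genes edgeR called 0.00565% in this comparison. The size of these differences depended on which treated NeuT library was kept. Without treated NeuT replicate 1 they were 0.53 for TRIB3, 1.68 for CHAC1, 0.68 for SESN2 and 0.56 for PPP1R15A. Without treated NeuT replicate 2 they were 0.10, 0.80, 0.07 and -0.04. Either run leaves treated NeuT with no replicate, so its p-values leave out the spread of the group whose replicates lay furthest apart.

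The treated NeuT replicates lay unusually far apart for 5 of the 10 genes. Replicate 2 was above replicate 1 by a log2 value of 0.43 for TRIB3, 0.87 for CHAC1, 0.60 for SESN2, 0.60 for PPP1R15A and 0.47 for NUPR1, and 99.0% to 99.8% of genes at the same level had a smaller gap. KLHDC7B differed by 0.57, but its counts are low and 76.0% of genes at its level had a smaller gap. TRIB1 differed by 0.26 and VLDLR by 0.22, with 89.6% and 71.4% of genes at their level below that. The gaps of TRIB2 (-0.05) and DDIT4 (-0.00) were smaller than those of most genes, with 17.1% and 2.35% below them. In treated Empty cells the order was the other way for the first 5 genes, with replicate 1 above replicate 2 by 0.14 to 0.47. The gap extended to the other ATF4 targets, of which 29 of 31 were higher in replicate 2 than in replicate 1 of treated NeuT (median log2 gap 0.24) and 24 of 31 were lower in replicate 2 of treated Empty (median -0.09). Some members also had wide gaps without the drug. In untreated Empty CHAC1 differed by -0.53, TRIB3 by -0.14 and KLHDC7B by 0.98, with 98.9%, 96.5% and 94.5% of genes at their level below. In untreated NeuT NUPR1 differed by 0.22 and DDIT4 by 0.12, with 96.4% and 96.5% below. Other gaps without the drug were smaller relative to genes at the same level. The cause of these gaps was not tested.

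**Figure D3:**
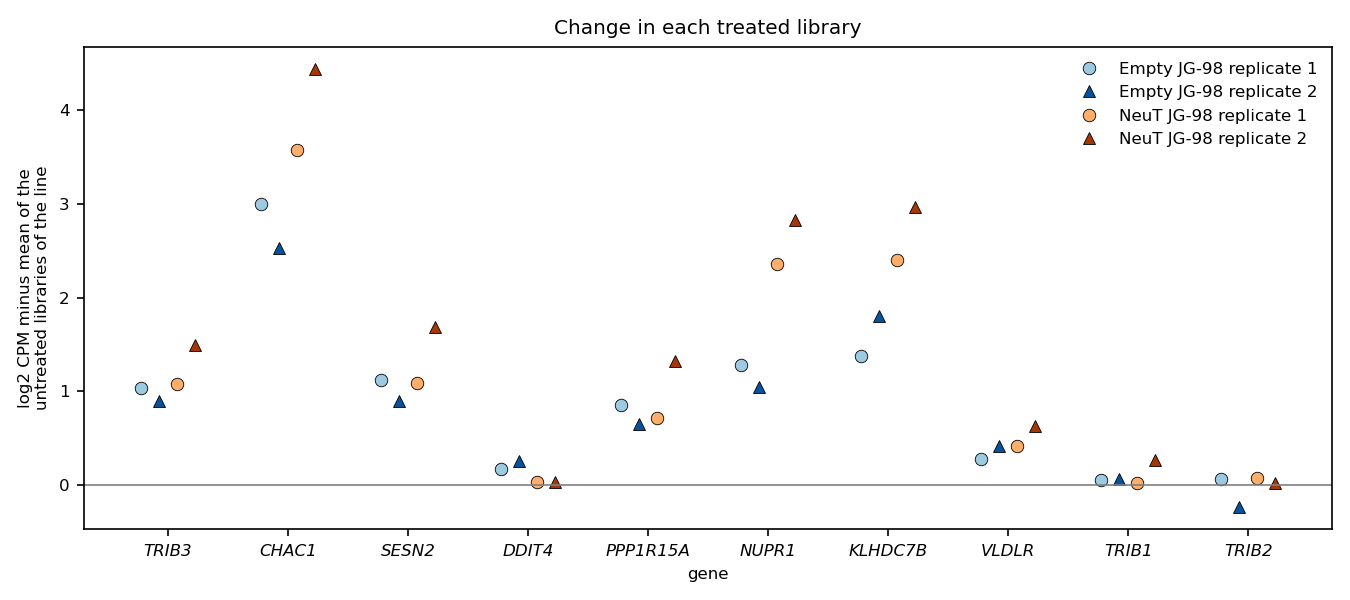
Log2 CPM of each treated library minus the mean of the untreated libraries of its line, for the 10 genes. Orange and brown symbols of treated NeuT are far apart for CHAC1, SESN2, PPP1R15A, KLHDC7B, NUPR1 and TRIB3, and replicate 1 lies near the blue symbols of treated Empty for TRIB3, SESN2 and PPP1R15A.

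Before treatment the NeuT cells already held more of most of these transcripts than the Empty cells. Of the 8 members chosen by function, 7 were called higher in untreated NeuT, where 21.2% of all genes tested were called higher and 42.0% in either direction, and 8 were called higher in NeuT under JG-98, where 21.7% and 41.7% were. When libraries were scaled by total counts, the higher share of all calls was 40.7% against 50.5% without the drug and 41.0% against 52.0% with it, and the same 7 and 8 members were called. SESN2 was 2.41-fold higher in untreated NeuT (log2 1.27, SE 0.216, edgeR adjusted p 0.00518), TRIB2 2.08-fold (1.06, SE 0.119, 1.67e-06), VLDLR 2.07-fold (1.05, SE 0.121, 2.1e-06) and TRIB1 1.80-fold (0.85, SE 0.0779, 1.38e-07). PPP1R15A was 1.81-fold higher (0.86, SE 0.205, edgeR adjusted p 0.0201), a call lost without untreated Empty replicate 1 (0.0763) or 2 (0.0845) or untreated NeuT replicate 1 (0.0595), in a range of 1.34e-11 to 0.0845. TRIB3 was 1.51-fold (0.60, SE 0.132, 0.00686) and DDIT4 1.33-fold higher (0.41, SE 0.0575, 1.83e-05). CHAC1 was not called (0.44, SE 0.533, edgeR adjusted p 0.572).

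Under JG-98 CHAC1 was 3.38-fold higher in NeuT (log2 1.76, SE 0.357, edgeR adjusted p 0.015), a call lost without treated Empty replicate 2 (0.0656), in a range of 8.22e-08 to 0.0676. SESN2 stood at 3.22-fold (1.69, SE 0.207, 0.00126), and its log2 difference was above that of CHAC1 without treated Empty replicate 2 (1.57 against 1.53) or treated NeuT replicate 2 (1.36 against 1.26). With the drug PPP1R15A stood at 2.23-fold (1.16, SE 0.2, 0.00565) and TRIB3 at 1.91-fold (0.94, SE 0.129, 0.000482). The difference of DDIT4 was 1.17-fold (0.23, SE 0.0574, 0.00379). NUPR1 was the one member whose line order turned: it was 0.536-fold in NeuT relative to Empty without the drug (log2 -0.90, SE 0.158) and 1.46-fold with it (0.55, SE 0.139). KLHDC7B was 2.71-fold and 5.76-fold higher in NeuT (1.44, SE 0.411, and 2.53, SE 0.307), and the first of these log2 values was 2.14 without untreated Empty replicate 2 and 0.97 without untreated Empty replicate 1. Among 4 fibroblast markers, DCN moved with the line, and their summed level was 8.49 to 9.71 CPM in Empty libraries and 68.3 to 82.8 in NeuT libraries, while COL1A2 and PDGFRB stayed under 1 CPM and no marker of the 4 was at 0 in any library. Their part in the line differences was not tested.

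Levels per length (CPM divided by the summed exon length of the deposited gene model in kilobases, which counts every isoform) put the members in nearly one order in both untreated lines. In untreated Empty the order was DDIT4, TRIB3 at 15.8 ± 1.09, PPP1R15A at 8.74 ± 0.152, TRIB1 at 7.96 ± 0.263, SESN2 at 4.64 ± 0.185, NUPR1 at 2.77 ± 0.0495, TRIB2 at 1.09 ± 0.0633, CHAC1 at 0.840 ± 0.221, VLDLR at 0.497 ± 0.0287 and KLHDC7B at 0.0419 ± 0.023 CPM per kilobase (SD, n = 2), with no overlap between neighbours. In untreated NeuT the order was the same except that TRIB2, at 2.27 ± 0.0473, stood above NUPR1, at 1.48 ± 0.163. In treated NeuT the replicates of PPP1R15A (32.8 ± 9.55), SESN2 (30.1 ± 8.71), CHAC1 (19.5 ± 8.06) and TRIB1 (15.9 ± 1.99) overlapped with their neighbours, and CHAC1 had passed from the eighth to the fifth place. Each kilobase-scaled level carries the limit that NUPR1, a gene of a small protein, has 5674 exonic bases in the table.

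The paralogs of the members gave no call with the drug. None of the 9 tested paralogs (among them STK40, CHAC2, SESN1, SESN3, DDIT4L, PPP1R15B and KLHDC7A) was called with JG-98 in either line by edgeR, DESeq2 or limma-voom, and 2 in Empty and 1 in NeuT had an unadjusted p under 0.05. Without treated NeuT replicate 1, 3 of them were called in NeuT, where 11.4% of all genes then were. As a share of the summed CPM per kilobase of its family, CHAC1 was 4.06% ± 0.946 (SD, n = 2) without and 23.4% ± 4.26 with JG-98 in Empty cells, and 7.45% ± 0.248 without and 60.1% ± 12.1 with it in NeuT cells, the remainder being CHAC2, the constitutive enzyme of the pair. SESN2 made up 56.3% ± 2.12 of the sestrins without and 73.2% ± 1.70 with the drug in Empty, and 68.6% ± 0.807 and 85.8% ± 4.72 in NeuT. PPP1R15A made up 39.3% ± 0.595 and 53.4% ± 3.82 of its pair with PPP1R15B, the constitutive regulator of the same phosphatase, in Empty, and 59.3% ± 0.582 and 73.9% ± 4.56 in NeuT. TRIB3 made up 63.5% ± 2.11 of the Tribbles transcripts without and 76.7% ± 1.04 with the drug in Empty, and 58.9% ± 1.42 and 76.1% ± 1.87 in NeuT, so its ranges under the drug overlapped between lines. These shares are descriptions with no test.

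**Figure D4:**
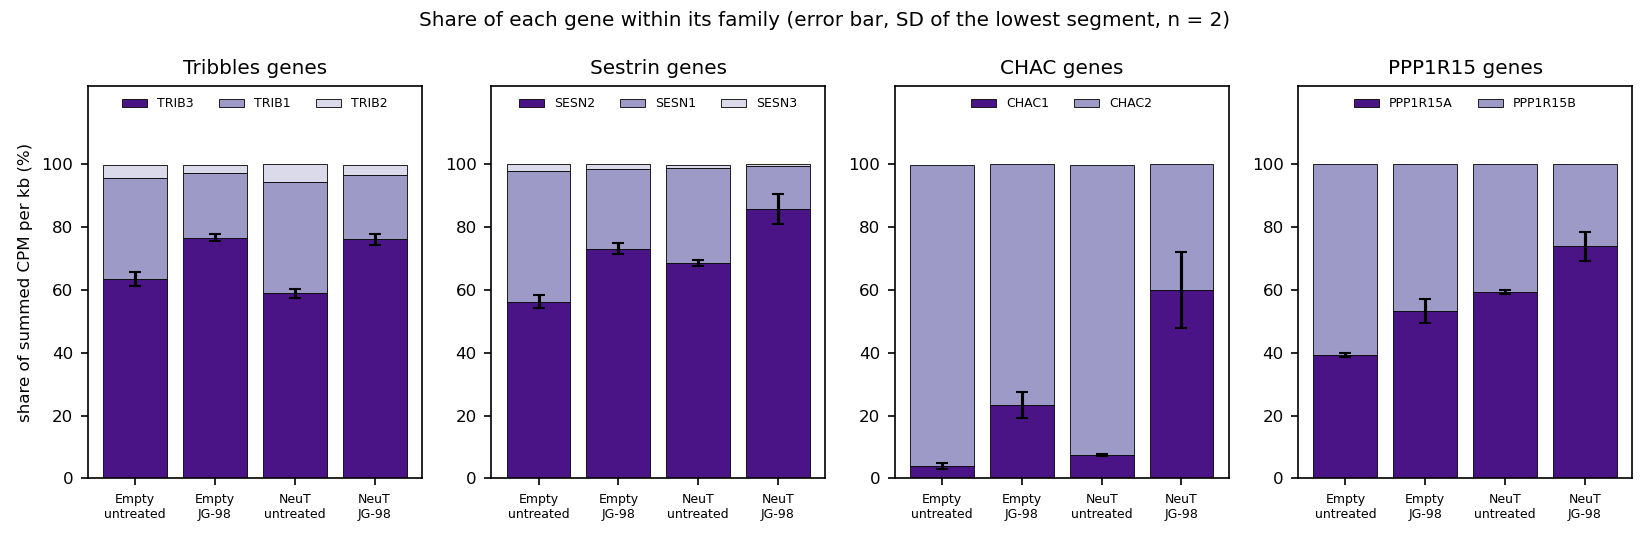
Share of each gene in the summed CPM per kilobase of its family, in percent, as stacked bars of group means from 0, with the SD of 2 libraries on the lowest segment. The lowest segment (TRIB3, SESN2, CHAC1 or PPP1R15A) is larger with JG-98 in both lines, and CHAC1 goes from 7.45% to 60.1% in NeuT.

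Genes of the same pathway, listed with earlier results of these data known, gave the setting. The other ATF4 targets, enzymes, transporters, tRNA synthetases and secreted factors, were higher with JG-98 in 31 of 31 tested genes in both lines, with 29 called higher in NeuT and 12 in Empty, where 2.01% and 0.260% of all genes were, and medians of 0.63 and 0.38. ADM2, a secreted peptide, rose by 4.07 (SE 0.29, edgeR adjusted p 7.96e-07) in NeuT and 3.20 (SE 0.328, 9.98e-05) in Empty, the cystine transporter SLC7A11 by 2.60 (SE 0.213, 0.00244) and the cysteine-forming enzyme CTH by 1.997 (SE 0.156, 1.96e-06) in NeuT, and the stress cytokine GDF15 by 1.05 (SE 0.0963, 9.98e-05) and PCK2 by 0.90 (SE 0.129, 0.019) in Empty. The Empty count of 12 was 3 without treated Empty replicate 1, 4 without either untreated Empty library, 7 without treated Empty replicate 2 or either untreated NeuT library, and 26 or 25 without treated NeuT replicate 1 or 2. The share of all genes called in Empty in these settings moved with it, from 0.0483% without treated Empty replicate 1 to 2.23% without treated NeuT replicate 1. Of 7 ATF4 and CHOP factors, 5 rose and 1 fell in NeuT, and 3 rose in Empty. DDIT3, which encodes CHOP, rose by 2.60 (SE 0.163, edgeR adjusted p 1.58e-07) in NeuT and 1.33 (SE 0.175, 0.00156) in Empty, ATF4 itself by 1.34 (SE 0.0838, 1.67e-06) and 0.51 (SE 0.0818, 0.0157), and ATF5 fell by 0.29 in NeuT (SE 0.0704, 0.0288). The 3 Empty calls became 0 without treated Empty replicate 1, 1 without either untreated Empty library and 5 without either treated NeuT library.

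PPP1R15A acts on eIF2α, and no gene of that cycle was called with the drug. Of all genes tested, 0.260% were called higher with JG-98 in Empty and 2.01% in NeuT. In either direction 0.339% and 3.01% were called. Among 16 genes of the eIF2α cycle (the kinases, eIF2α, the phosphatase subunits, eIF2B, DELE1 and OMA1), edgeR called 0 with JG-98 in each line, DESeq2 and limma-voom called 0, and 1 in Empty and 3 in NeuT had an unadjusted p under 0.05. Without treated NeuT replicate 1, 2 of the 16 were called in NeuT, a share near the 11.4% of all genes called in that setting. Among 37 genes that feed into or read out mTORC1, the complex that SESN2 and DDIT4 restrain, 1 was called in Empty and 2 in NeuT, all higher: EIF4EBP1, a translation repressor and itself an ATF4 target, by 0.28 in each line (SE 0.0529, edgeR adjusted p 0.0258, and SE 0.0525, 0.00723), and the autophagy kinase ULK1 by 0.50 in NeuT (SE 0.0985, 0.0123). The NeuT count was 0 without either untreated NeuT library and 6 of 37 without treated NeuT replicate 1, against the same 11.4% of all genes, and the Empty count was 0 without any one of the Empty or untreated NeuT libraries. Of 13 genes of glutathione turnover, on which CHAC1 acts, SLC7A11 alone was called in NeuT and 0 in Empty, where DESeq2 and limma-voom each called 1 and 1 had an unadjusted p under 0.05. The NeuT count of this list also rose without treated NeuT replicate 1, and its Empty count rose without either treated NeuT library. The share of all genes called rose in the same runs. Of 11 binding partners of the Tribbles proteins, the autophagy receptor SQSTM1 alone rose in NeuT (0.26, SE 0.0635, edgeR adjusted p 0.0341), a call that also fell away without either untreated library of either line or treated NeuT replicate 2, and in Empty edgeR, DESeq2 and limma-voom called 0 (1 with an unadjusted p under 0.05). None of 13 tested relatives and partners of VLDLR was called in either line by edgeR, 1 in each line had an unadjusted p under 0.05, DESeq2 called 1 in NeuT, limma-voom called 0, and 3 were called in NeuT without treated NeuT replicate 1.

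Members also belong to other programmes. With JG-98, 0.260% of all genes tested were called higher and 0.0791% lower in Empty. In NeuT 2.01% were called higher and 1.01% lower. SESN2 is a known p53 target, and among 18 other p53 targets GADD45A alone rose with JG-98 in NeuT (0.86, SE 0.145, edgeR adjusted p 0.0248), a call lost without either untreated NeuT library, with 5 of 18 called without treated NeuT replicate 1, when 11.4% of all genes were. In Empty edgeR, DESeq2 and limma-voom called 0 of the 18, and 4 had an unadjusted p under 0.05. DDIT4 is induced by hypoxia and by glucocorticoids. Of 12 hypoxia targets, 0 rose and BNIP3 alone fell, by 0.37 in Empty (SE 0.0761, edgeR adjusted p 0.0468) and 0.32 in NeuT (SE 0.0727, 0.0239). In Empty 11 of the 12 were lower (median -0.21, against -0.00 over all genes tested) and 8 had an unadjusted p under 0.05, and in NeuT 9 were lower (median -0.12) and 4 had one. The Empty call of BNIP3 was lost with total counts, with limma-voom and without any one Empty or untreated NeuT library, and in NeuT it was lost without either untreated NeuT library or treated NeuT replicate 2. Of 8 glucocorticoid targets, TSC22D3 rose by 0.42 in Empty (SE 0.0725, edgeR adjusted p 0.0136) and 0.65 in NeuT (SE 0.0706, 4.84e-05), ERRFI1 by 0.32 (SE 0.0534, 0.0115) and 0.49 (SE 0.0529, 4.76e-05), and DUSP1 by 0.30 in NeuT (SE 0.0564, 0.00611). The 2 Empty calls became 0 without any one Empty library. Between untreated lines the picture differed, with 14 of 18 p53 targets (median 0.45) and 11 of 12 hypoxia targets (median 1.05) called higher in NeuT and none lower, against 21.2% of all genes called higher and 20.8% lower, while 14 of 31 other ATF4 targets were called lower and 6 higher (median -0.20, against -0.02 over all genes tested). Lists of this kind were described by counts alone, and nothing particular to a list follows from them.

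Genes near the members were examined for changes of the surrounding region. Of 56 tested genes within 100 kilobases of a member, 2 were called with JG-98 in Empty, where 0.339% of all genes tested were, and 3 in NeuT, where 3.01% were. RBCK1, a subunit of the linear ubiquitin ligase complex (ENSG00000125826, chromosome 20, 407498 to 430966), begins 9.94 kilobases beyond TRIB3 and rose by 0.34 in Empty (SE 0.0586, edgeR adjusted p 0.0136) and 0.36 in NeuT (SE 0.0578, 0.00197). ADM2 (ENSG00000128165, chromosome 22, 50481543 to 50486440) lies 59.8 kilobases from KLHDC7B, and VLDLR-AS1 (ENSG00000236404, chromosome 9, 2421597 to 2643359) overlaps VLDLR. CHAC1, SESN2, DDIT4, PPP1R15A, NUPR1, TRIB1 and TRIB2 had no called neighbour.

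The genes most like each member were found by Pearson's r of log2 CPM over the 8 libraries, centred within each line, among the 13143 genes that averaged 50 counts or more. These values describe libraries that share line, drug and depth, and carry no test. TRIB3 and SESN2 had an r of 0.997 with each other, and both had FUT3, a fucosyltransferase gene, among their closest 3 at 0.996. CHAC1 was most like ERRFI1 (0.999), TRIB3 (0.996) and the serine synthesis enzyme PSAT1 (0.996). PPP1R15A was closest to KLHL24 (0.998) and the immediate early gene JUNB (0.997), and then to SESN2 (0.995). NUPR1 was closest to GPX8 (0.997), the tRNA synthetase gene CARS1 (0.997) and the mitochondrial folate enzyme MTHFD2 (0.996). KLHDC7B (SESTD1, 0.994) and VLDLR (VRK3, 0.983) had different nearest genes but shared ETV5, a transcription factor of the ETS family, among their closest 3, at 0.985 and 0.981. DDIT4 (ZNF467, 0.970), TRIB1 (MEF2D, 0.996) and TRIB2 (ANKRD18EP, 0.987) shared none of their closest 3 genes with another member.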

How the data were processed

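Poly(A)-selected RNA was sequenced from 8 libraries, 2 in each of 4 groups taken from the sample titles. The authors deposited raw counts per gene, made with featureCounts 1.6.3 after HISAT2 2.1.0 alignment and Trim Galore 0.5.0, with FastQC 0.11.7 and SAMtools 1.9 also named and hg38/GRCh38 as the build, per the submitters' processing notes. The use of strand, the handling of reads with several matches and the annotation release are not given in the sources used here. The authors also deposited log2 fold changes, mean log2 expression, test scores, p-values and adjusted p-values for each line, per the file headers, and limma is named without a version per the submitters' processing notes. Every value column was matched to its sample by name, leaving 0 unmatched. A gene name table gave symbols for 60261 of 60617 identifiers, and coordinates are those of the deposited table, 1-based.

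Counts were fitted with edgeR 4.0.16 in R 4.3.3: filterByExpr (minimum count 10, total 15; 17693 genes kept), TMM scaling, 1 coefficient per group, robust quasi-likelihood estimation, Benjamini-Hochberg adjustment over all genes kept, and a threshold of 0.05. Standard errors are the log2 difference divided by the square root of F. No exact permutation test can reach 0.05 with 2 against 2 libraries. A count of 0 leaves room for up to 3 counts, 0.0528 to 0.0803 CPM, which covers counting error only. Replicates of a group differed by more than sampling noise. The script was tested on simulated data. Alternatives were RLE factors, total counts, no filter, a minimum of 10 counts in all libraries, limma-voom 3.58.1, DESeq2 1.42.0, no robust estimation, the replicate number as a block, only the 4 libraries compared, and each library left out. The members and lists were chosen with earlier results of these data known. Besides the members, genes were named from each of 11 lists as up to 3 rises and 2 falls among those called and averaging 50 counts or more, together with called neighbours within 100 kilobases and the 3 genes closest in pattern. The lists overlap, so a named gene can stand in more than one, and paralogs were also named to define their list.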

Additional observations from a re-analysis of the deposited data

How the results depend on the processing

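Directions of the members chosen by function held for JG-98 in each line under every alternative run, except TRIB2 in Empty and DDIT4 in NeuT, whose uncalled values crossed 0 (-0.24 to 0.06 and -0.03 to 0.08). The number of all genes called moved by more than 1.5 times in 3 comparisons. For JG-98 in Empty it was 60, and became 282 without the filter, 146 with DESeq2, 205 with only the 4 libraries compared, and 9 to 417 with 1 library left out. For JG-98 in NeuT it was 533, and became 1000 without the filter, 185 with only the 4 libraries compared, and 132 to 2133 with 1 library left out. For the difference between these changes it was 1, and became 2 with total counts, 138 without the filter, 19 with DESeq2, 3 without robust estimation, and 1 to 777 with 1 library left out. Between lines the counts of 7423 and 7380 moved by less than 1.5 times.

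Whether replicate numbers pair the libraries was not settled, and the main fit took them as unpaired. Correlations of replicate differences were 0.24 between treated Empty and treated NeuT, and -0.10 to 0.06 between the other groups. With the replicate number as a block, 66, 593, 1, 7497 and 7451 genes were called in the 5 comparisons, and of the 8 members chosen by function 0, 2, 0, 6 and 8. The blocked adjusted p was 0.11 for TRIB3 in Empty, 0.0584 for CHAC1 and 0.0732 for SESN2 in NeuT, and 0.0504 for PPP1R15A between untreated lines. With only the 4 libraries compared, TRIB3 alone of the 8 was called in NeuT and 5 were called in Empty, beside 1.11% and 1.22% of all genes, and without robust estimation 5 and 4 were, beside 2.67% and 0.333%. The causes of these shifts were not tested. Depth limits KLHDC7B most, with 7 to 247 counts.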
